A study of Rattus norvegicus with 6 samples.

Results

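The genes described here are those through which a thyroid cell could itself respond to thyroid hormone: the hormone receptors Thra and Thrb, their partners Rxra, Rxrb and Rxrg, the corepressor Ncor1, and the hormone-responsive genes Thrsp and Hr. They were found by gene symbol among the 15388 genes counted in each sample, where all 8 were present. RNA was taken from the thyroid of adult Sprague-Dawley rats that were non-pregnant (NP) or in late pregnancy (LP, day 18, counting the day of the vaginal plug as day 1). No transgene or drug was used, and 3 samples were deposited for each group. The oestrous stage of the NP rats is not given in the sources used here, and while 3 rats per group are stated, nothing in these sources ties each library to 1 rat.

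Thyroid hormone receptors are nuclear receptors that sit on DNA, mostly as a pair with a retinoid X receptor (RXR). Without the active hormone T3 the pair holds corepressors such as NCOR1, which lower transcription. When T3 binds, corepressors leave and coactivators are recruited. Thra and Thrb encode the alpha and beta receptors, and one splice form of Thra gives a protein that does not bind T3. Thrsp, also called Spot 14, is raised by T3 in lipogenic tissues, and Hr encodes hairless, a corepressor raised by T3 in brain.

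The libraries held between 2752144 and 3449857 counted reads. The smallest level that this depth can show, 3 reads, was 0.870 to 1.09 CPM depending on the library. Like all intervals below, it covers counting error only. CPM are counts scaled to a common library size, here with TMM factors, which set libraries level on the bulk of genes. Within each group, replicates 2 and 3 agreed within sampling noise, with chi-square values over genes of 1.02 (NP, p = 0.111) and 0.995 (LP, p = 0.667) relative to the degrees of freedom, and replicate 1 differed from both. Each mean ± SD therefore takes the average of replicates 2 and 3 as a single value, which leaves n = 2 per group. The p-values, which use all 6 samples, measure the spread between these samples, and this spread may be technical. All 9 follicular cell markers examined, thyroglobulin among them, had at least 166 reads in every sample, with a summed level, nearly all of it thyroglobulin, between 231066 and 249396 CPM in NP and between 241382 and 257733 CPM in LP. Of these markers, Nkx2-1 and Duox2 were higher in LP (log2 fold changes of 0.28 and 0.29), and 2 were lower: the iodide transporter gene Slc5a5 at -0.94 (adjusted p = 3.06e-10 by edgeR), and the thyrotropin receptor gene Tshr at -0.68 (adjusted p = 3.9e-07 by edgeR). Markers of the neighbouring parathyroid (4458 to 4830 CPM in NP, 3717 to 4029 in LP) and of C cells (14129 to 15109 and 12515 to 13270) were present in both groups. In such tissue RNA, fewer cells of a type and less RNA per cell cannot be told apart, nor can more cells and more RNA per cell.

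Of the 8 genes, Thra, Thrb, Rxra, Rxrg and Ncor1 were higher in LP and Thrsp was lower, while Rxrb and Hr did not pass the threshold (adjusted p below 0.05, quasi-likelihood test of edgeR with all 6 samples, Benjamini-Hochberg adjustment over 11738 genes). Thus 5 genes rose, against 15.3% of all genes tested, and 1 fell, against 11.7%; either direction was called for 27.0%. All 8 passed the filter on low counts, but Rxrg did so only through its LP samples, and a gene that passes in this way had to differ. The CPM of the groups did not overlap for 6 of the 8, against 40.1% of the genes tested. The median log2 fold change was 0.34 for the 8 genes and -0.01 for all genes tested. Rxrg alone passed the threshold with a change of more than 2-fold, as did 5.44% of the genes tested in either direction.

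**Figure D1:**
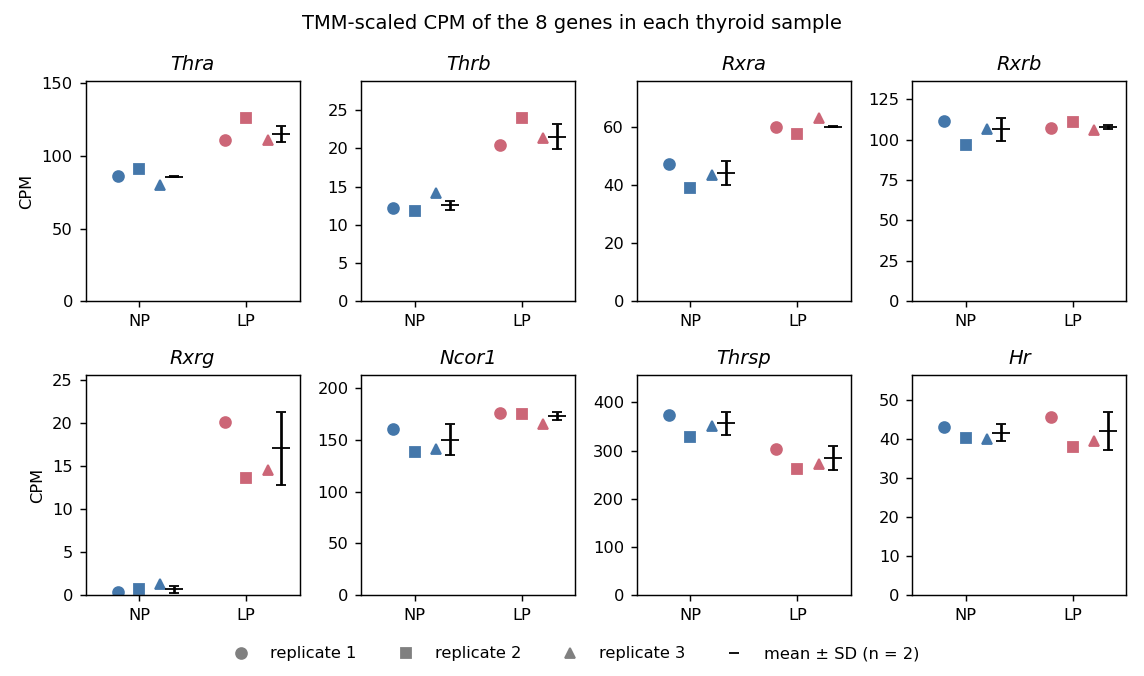
TMM-scaled CPM of each gene (vertical axes, each starting at 0) in the NP and LP samples, with circles, squares and triangles for replicates 1, 2 and 3, and with the mean ± SD at the right (n = 2, replicates 2 and 3 counted as 1 sample). The groups did not overlap for Thra, Thrb, Rxra, Rxrg, Ncor1 and Thrsp, and overlapped for Rxrb and Hr.

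The stretches before the start of Rxrg, the gene with the largest rise, and of Thrsp, the gene that fell, are shown with the CCAAT box (CCAAT, or ATTGG on the other strand) in capitals. They are the 250 bases upstream of the start in the RefSeq annotation of GRCr8, Rxrg on the plus strand of chr13:82276237-82276486 and Thrsp on the minus strand of chr1:161138965-161139214, each read 5′ to 3′ along the gene. These positions are not those of rn5, the build of the counts.
Rxrg: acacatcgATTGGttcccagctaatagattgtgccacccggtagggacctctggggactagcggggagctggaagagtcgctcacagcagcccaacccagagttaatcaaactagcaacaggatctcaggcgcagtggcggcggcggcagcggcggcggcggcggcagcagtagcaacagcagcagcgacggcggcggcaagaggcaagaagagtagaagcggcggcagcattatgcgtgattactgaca
Thrsp: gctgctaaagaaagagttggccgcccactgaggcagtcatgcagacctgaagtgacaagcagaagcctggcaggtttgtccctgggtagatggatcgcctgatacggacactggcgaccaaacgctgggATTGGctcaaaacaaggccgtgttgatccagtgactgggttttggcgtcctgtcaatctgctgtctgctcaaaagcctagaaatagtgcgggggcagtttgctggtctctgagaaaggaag
The box was found once in each, at 242 bases before the start in Rxrg and 121 in Thrsp, and it occurs in 34.0% of the 33360 distinct stretches of this length in the table. The half-site of nuclear receptors (AGGTCA, both strands) occurs in 14.1% of them. It was not found in the stretch of any of the 7 genes that had an entry (all but Hr). Its direct repeat with a spacer of 4 bases, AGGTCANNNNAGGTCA, the classical binding element of receptor pairs with RXR, was found in none of the 7 either, and in 1 of all the stretches. The E-box CANNTG, to which muscle regulatory factors and clock proteins bind, occurs in 65.5% of the stretches and was found in neither Rxrg nor Thrsp. An absent match says only that these letters are not in this window.

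NP replicates 1, 2 and 3 held 241, 278 and 244 reads of Thra (ENSRNOT00000087346), and LP replicates 1, 2 and 3 held 348, 426 and 375. Every LP sample was above every NP sample. Its level was 85.8 ± 0.36 CPM (mean ± SD, n = 2) in NP and 115 ± 5.5 CPM in LP, a 1.36-fold rise (log2 fold change 0.44, standard error 0.071, adjusted p = 0.000145 by edgeR). Each sample gives a single count for Thra, so the hormone-binding and non-binding forms were not told apart.

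Thra overlaps Nr1d1, a clock gene for the repressor REV-ERB alpha, on the opposite strand in the RefSeq annotation, and the sources used here do not say whether strand was used in counting. Reads from the overlap of these genes can therefore be uncertain. Nr1d1 rose too, from 48.1 ± 0.73 CPM to 76.8 ± 3.0 CPM (log2 fold change 0.70, standard error 0.073, adjusted p = 1.07e-06 by edgeR). Its share of the reads on both genes was 36.1%, 35.0% and 36.5% in NP and 40.2%, 38.5% and 41.4% in LP, higher in each LP sample (exact two-sided permutation test, p = 0.1, the smallest that 3 samples against 3 allow). Med24, a mediator subunit gene that also overlaps Thra, had a log2 fold change of -0.23 (adjusted p = 0.0335 by edgeR). How far shared reads enter the value of Thra was not tested.

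Thrb (ENSRNOT00000008989) was counted at 34, 36 and 43 reads in the NP replicates, against 64, 81 and 72 in LP, and again the groups did not overlap. Its level rose from 12.6 ± 0.57 CPM to 21.6 ± 1.6 CPM, a 1.73-fold change (log2 fold change 0.79, standard error 0.15, adjusted p = 0.000846 by edgeR). Pooled per group, the counts gave a ratio of 1.73 with a 95% counting interval from 1.37 to 2.19. Of the reads on both receptor genes, Thrb took 12.4%, 11.5% and 15% in NP and 15.5%, 16.0% and 16.1% in LP. The 95% Wilson intervals of single samples were wide, such as 11.3% to 19.6% in NP replicate 3 and 12.4% to 19.3% in LP replicate 1. The means differed by 2.99 percentage points, and the exact permutation test over the 6 samples gave its smallest possible two-sided value (p = 0.1, adjusted p = 0.1 over the 5 shares compared). Every LP share lay above every NP share, but no test of 3 samples against 3 by permutation can pass the threshold. Nr1d2, the REV-ERB beta gene close to Thrb on the chromosome, moved the opposite way, from 80.3 ± 4.1 CPM to 51.4 ± 4.1 CPM (log2 fold change -0.60, adjusted p = 1.8e-05 by edgeR).

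Among the RXR genes, which encode the common partner of many nuclear receptors, Rxra and Rxrg rose and Rxrb kept overlapping values. Rxra (ENSRNOT00000012892) was read 132, 119 and 133 times in the NP replicates and 188, 194 and 213 times in the LP replicates. All LP samples were higher, the level rising from 44.2 ± 4.1 CPM to 60.2 ± 0.25 CPM (1.4-fold, log2 fold change 0.48, standard error 0.089, adjusted p = 0.000518 by edgeR). Rxrb (ENSRNOT00000041613) was read 312, 295 and 324 times without pregnancy and 335, 375 and 357 times in LP. Its level was 106 ± 7.0 CPM in NP and 108 ± 1.2 CPM in LP, and its log2 fold change, 0.045 (standard error 0.065, adjusted p = 0.668 by edgeR), did not exceed the spread between samples. Slc39a7, a zinc transporter gene that overlaps Rxrb in the RefSeq annotation, had a log2 fold change of -0.45 (adjusted p = 1.8e-05 by edgeR). How far shared reads enter the value of Rxrb was not tested.

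Rxrg (ENSRNOT00000077227), the gamma form, which is known from skeletal muscle and parts of the brain, was near the limit of the depth in NP. Its reads numbered 1, 2 and 4 in the NP replicates, and 63, 46 and 49 in those of LP. The LP level was 17.1 ± 4.3 CPM against 0.671 ± 0.44 CPM in NP. The fit gave a log2 fold change of 4.28 (with standard error 0.37, adjusted p = 7.81e-08 by edgeR), and the pooled counts gave a ratio of 20.3 with a 95% counting interval from 9.64 to 51.4. Compared by replicate, the log2 ratio was 5.82 in replicate 1 and 3.84 in replicates 2 and 3, the former resting on a single NP read.

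Most of the skeletal muscle markers measured moved with Rxrg. Of the 15 listed markers 11 were measured and 9 tested, 8 of which were higher in LP, against 15.3% of all genes tested. Tnnt3, Tnni2, Myh1, Pvalb, Ryr1 and Cacna1s held at most 8 reads in any NP sample. Like Rxrg, they passed the filter only through LP and had to differ. The summed level of the 11 measured markers lay between 21.1 and 71.4 CPM in NP and between 3070 and 3217 CPM in LP. Mylpf and Myh1 had no read in any NP sample. Acta1 had no read in replicate 1 of either group and between 144 and 186 in the other samples, and was the tested marker that did not pass (adjusted p = 0.93 by edgeR). The part of muscle RNA in the rise of Rxrg, or in those of Thra, Thrb, Rxra and Ncor1, was not tested. Among 115 genes of the lists examined, those whose log2 CPM followed that of Rxrg most closely over the 6 samples included Ucp3 (Pearson r = 0.995) and Scgb3a1 (0.991). These are values over 2 groups of 3, where any gene that separates the groups scores high.

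**Figure D2:**
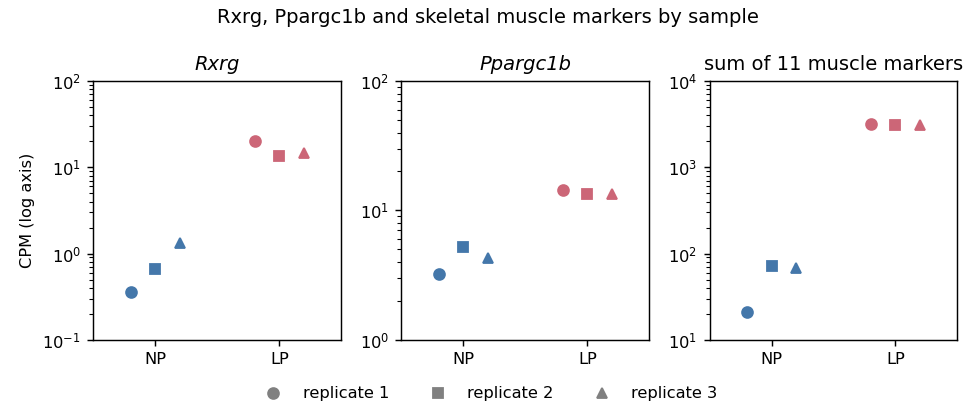
CPM on log axes of Rxrg, of the coactivator gene Ppargc1b and of the sum of the 11 measured skeletal muscle markers, with a symbol for each replicate of NP and LP. In each of the panels all LP samples lie above all NP samples, the markers at 3070 to 3217 CPM in LP.

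The makeup of RXR reads differed between the groups. From NP to LP the mean share changed by 8.77 percentage points for Rxrg, 3.33 for Rxra and -12.1 for Rxrb. Rxrg took 0.225%, 0.481% and 0.868% of the reads on the RXR genes without pregnancy, and 10.8%, 7.48% and 7.92% in late pregnancy. Rxrb took 70.1%, 70.9% and 70.3% in NP and 57.2%, 61.0% and 57.7% in LP. The 95% Wilson intervals of Rxrg and of Rxrb did not overlap between the groups, whereas those of Rxra did, with 29.7%, 28.6% and 28.9% in NP and 32.1%, 31.5% and 34.4% in LP. For each of these shares the exact permutation test gave p = 0.1, the smallest that 3 samples against 3 allow. Gene length was not taken into account, so a share can be compared between samples but not between genes.

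**Figure D3:**
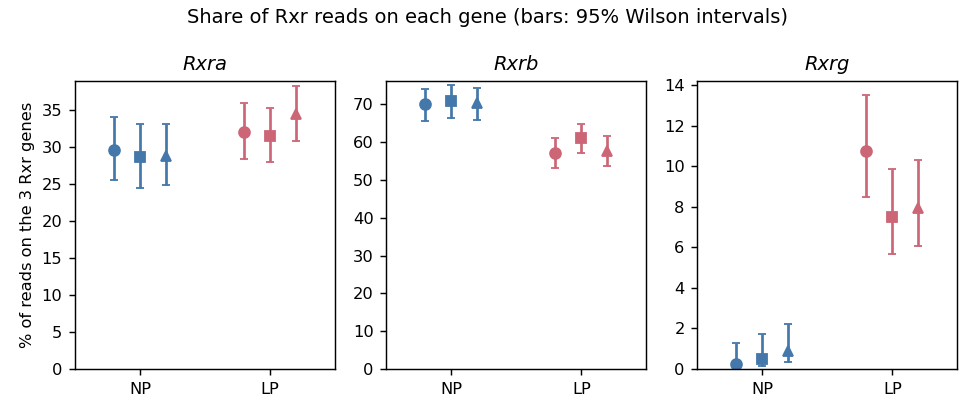
Percent of the reads on the 3 RXR genes that fell on each of them (vertical axes, each starting at 0), by sample, with bars for 95% Wilson intervals, which cover counting error only. Rxrg took under 1% in each NP sample and between 7.48% and 10.8% in the LP samples.

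Ncor1 (ENSRNOT00000081409), the gene of the corepressor that binds receptors without hormone, showed a small rise. Its reads numbered 450, 422 and 429 for NP against 552, 591 and 558 for LP, and the lowest LP sample (166 CPM, replicate 3) was only slightly above the highest NP sample (161 CPM, replicate 1). The level was 150 ± 15 CPM in NP and 173 ± 4.1 CPM in LP (log2 fold change 0.23, standard error 0.065, adjusted p = 0.0117 by edgeR). With replicates 2 and 3 summed into 1 sample this call was lost (adjusted p = 0.0984), and it was also lost without NP replicate 2 (0.0881), without NP replicate 3 (0.0756) or without LP replicate 2 (0.0524, all by edgeR). Pigl, a glycolipid enzyme gene that overlaps Ncor1, had a log2 fold change of 0.13 (adjusted p = 0.654 by edgeR).

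Genes of other corepressor subunits gave no common direction. Of 7 tested, 1 rose, 1 fell and 5 did not pass, with a median log2 fold change of 0.08. The share that rose, 14.3%, was near the 15.3% of all genes tested, of which 11.7% fell. Tbl1x, a subunit of the NCOR complex, decreased from 140 ± 8.6 CPM to 99.3 ± 5.5 CPM (log2 fold change -0.50, adjusted p = 2.21e-05 by edgeR).

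Of 12 coactivator genes tested, 4 rose (33.3%) and 1 fell, with a median log2 fold change of 0.20. Over all genes tested, 15.3% rose and 11.7% fell. Ppargc1b, a coactivator of mitochondrial genes, increased from 3.99 ± 1.1 CPM to 13.9 ± 0.72 CPM (log2 fold change 1.67, standard error 0.23, adjusted p = 2.38e-05 by edgeR). Its relative Ppargc1a rose by 0.54 on the log2 scale (adjusted p = 0.0309 by edgeR), a call that was lost with replicates 2 and 3 summed (0.0673), by DESeq2 (0.184) and without NP replicate 3 (0.141), LP replicate 1 (0.109) or LP replicate 2 (0.0799). Carm1, an arginine methyltransferase recruited by coactivators, rose by 0.38 (adjusted p = 0.007 by edgeR, or 0.0635 without LP replicate 3). Ppargc1a and Ppargc1b are also active in skeletal muscle, whose markers rose in the same samples, and that part was not tested.

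Other receptors that pair with RXR were then examined. Of 12 tested, 3 rose (25%, against 15.3% of all genes) and 1 fell (against 11.7%). The median log2 fold change was -0.05. Nr4a1, an immediate early orphan receptor, rose from 25.3 ± 1.9 CPM to 58.2 ± 2.0 CPM (log2 fold change 1.19, standard error 0.097, adjusted p = 4.11e-08 by edgeR). Ppara, a receptor of fatty acid oxidation, increased from 1.56 ± 0.82 CPM to 4.30 ± 0.21 CPM (log2 fold change 1.66, standard error 0.41, adjusted p = 0.00561 by edgeR and 0.057 by DESeq2). Ppard rose by 0.34 on the log2 scale (adjusted p = 0.00181 by edgeR). The gene that fell was the vitamin D receptor gene Vdr, named after its values were seen, at -0.16 (adjusted p = 0.0382 by edgeR), and no receptor of this list fell with DESeq2, with replicates 2 and 3 summed, or without any single sample other than LP replicate 1.

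**Figure D4:**
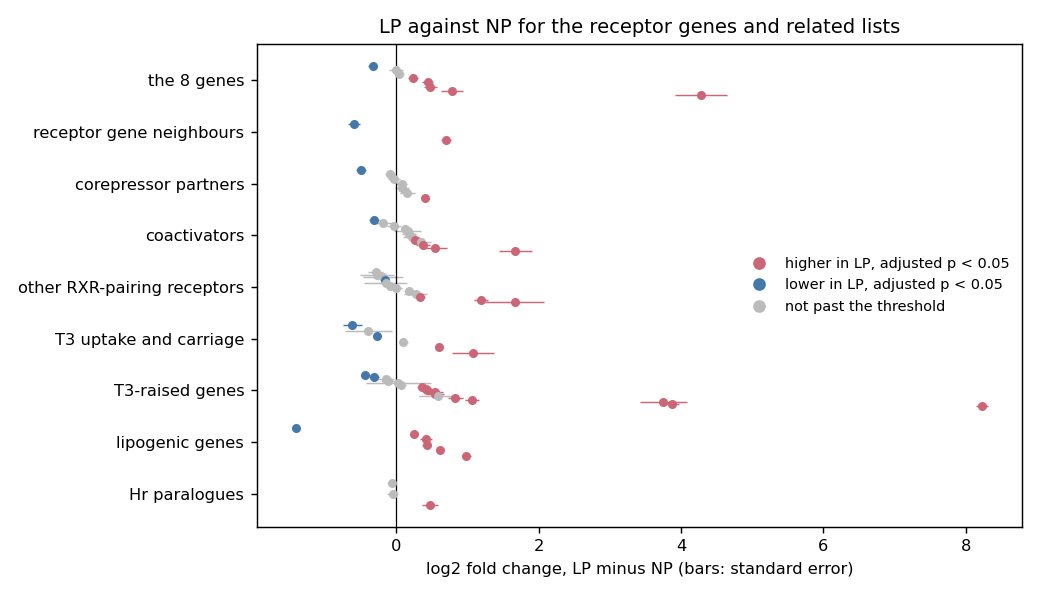
Log2 fold change of LP minus NP (horizontal axis, bars for the standard error) of each tested gene of the 8 and of the lists examined with them, coloured by direction where the adjusted p of edgeR was below 0.05. Rxrg stands apart among the 8 genes at 4.28, and Mid1ip1 among the lipogenic genes at -1.41.

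Thrsp (ENSRNOT00000016540) fell. The NP replicates held 1047, 1002 and 1071 of its reads and the LP replicates 947, 884 and 919, in libraries that were larger in LP. Every LP sample was below every NP sample, with a level of 357 ± 24 CPM in NP and 285 ± 25 CPM in LP (log2 fold change -0.33, standard error 0.064, adjusted p = 0.000768 by edgeR). The pooled counts gave a ratio of 0.794 with a 95% counting interval from 0.754 to 0.836. Replicate 1 gave a log2 ratio of -0.31, and replicates 2 and 3 gave -0.35.

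Mid1ip1, the paralogue of Thrsp whose protein joins acetyl-CoA carboxylase in fat synthesis, also fell. It was read 1650, 1621 and 1632 times in the NP replicates, against 672, 667 and 709 times in LP. The level dropped from 561 ± 40 CPM to 209 ± 7.4 CPM, a 2.66-fold decrease (log2 fold change -1.41, standard error 0.058, adjusted p = 2.91e-12 by edgeR).

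The other 5 lipogenic genes tested all rose, so that Thrsp and Mid1ip1 moved against them. Rises were called for 83.3% of the lipogenic list, Mid1ip1 included, against 15.3% of all genes tested. Scd1, a fatty acid desaturase, increased from 110 ± 6.2 CPM to 217 ± 9.95 CPM (log2 fold change 0.99, adjusted p = 8.14e-10 by edgeR). Srebf1, a master regulator of lipid synthesis, increased from 109 ± 4.5 CPM to 167 ± 6.6 CPM (log2 fold change 0.62, adjusted p = 2.17e-07 by edgeR). Acly, Acaca and Me1, enzymes that supply acetyl-CoA, malonyl-CoA and NADPH, had log2 fold changes of 0.25, 0.42 and 0.43 (adjusted p = 0.00368, 0.00139 and 5.32e-05 by edgeR). Of the adipocyte markers, 0 of 6 tested passed the threshold in edgeR's test, against 27.0% of all genes tested. The summed level of the adipocyte markers was 168 to 176 CPM in NP and 174 to 202 CPM in LP.

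**Figure D5:**
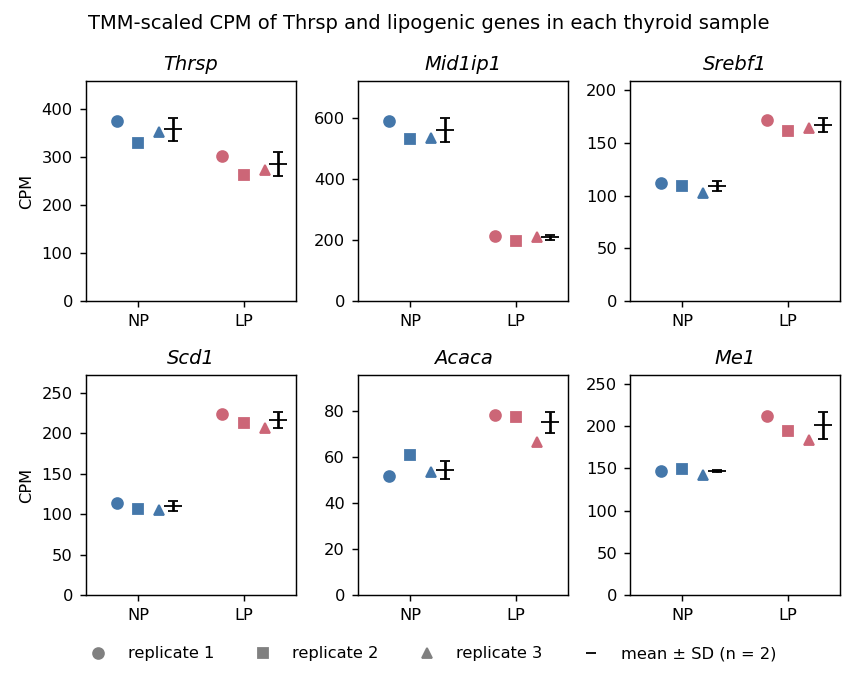
TMM-scaled CPM of Thrsp, its paralogue Mid1ip1 and 4 lipogenic genes (vertical axes, each starting at 0) in the NP and LP samples, with a symbol for each replicate and the mean ± SD at the right (n = 2, replicates 2 and 3 counted as 1 sample). Thrsp and Mid1ip1 lie lower in every LP sample, and Srebf1, Scd1, Acaca and Me1 higher.

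Hr (ENSRNOT00000082639) was read 121, 123 and 122 times in the NP replicates, and 143, 128 and 133 times in LP. The groups overlapped, with a level of 41.7 ± 2.2 CPM in NP and 42.2 ± 4.9 CPM in LP. Its log2 fold change, -0.01 with a standard error of 0.0995 (adjusted p = 0.971 by edgeR), did not exceed the spread, and the pooled counts gave a ratio of 0.995 with a 95% counting interval from 0.861 to 1.15. Hr overlaps the small gene Hrurf in the RefSeq annotation, which was not analysed here. Of the related histone demethylase genes, Kdm3a rose from 27.7 ± 2.8 CPM to 40.0 ± 2.1 CPM (log2 fold change 0.47, adjusted p = 0.00284 by edgeR), and Kdm3b and Jmjd1c did not pass.

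Textbook targets that T3 raises in one tissue or another were counted next. Of 24 listed, 17 were tested, of which 10 rose (58.8%) and 2 fell, with a median log2 fold change of 0.43. Among all genes tested, 15.3% rose and 11.7% fell. The larger changes were those of muscle genes. Atp2a1, the calcium pump of fast muscle, increased from 3.75 ± 0.26 CPM to 1169 ± 74 CPM (log2 fold change 8.22, adjusted p = 6.82e-20 by edgeR). Slc2a4, the insulin-responsive glucose transporter, and Ucp3, a mitochondrial carrier of muscle, had log2 fold changes of 3.88 and 3.75 (adjusted p = 7.76e-16 and 1.02e-07 by edgeR). Ucp3 had 2, 4 and 4 reads in NP against 61, 45 and 48 in LP. It passed the filter only through LP, as Rxrg did, and so had to differ. Atp2a1, Slc2a4 and Ucp3 moved with the skeletal muscle markers, whose part in them was not tested.

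Further targets were named after their values were seen, because they are less tied to muscle. Dio1, the deiodinase that makes T3 and a classical T3 target of liver, fell from 453 ± 24 CPM to 338 ± 25 CPM (log2 fold change -0.43, adjusted p = 2.13e-05 by edgeR). Klf9, a transcription factor gene that T3 raises in many cells, had 109 ± 6.8 CPM and 115 ± 1.6 CPM (log2 fold change 0.064, adjusted p = 0.61 by edgeR) and overlapped between the groups. Cpt1a, the entry enzyme of mitochondrial fatty acid oxidation, fell by 0.32 on the log2 scale (adjusted p = 0.00222 by edgeR). Gpd2, the mitochondrial glycerol phosphate dehydrogenase, rose by 0.36 on the log2 scale (adjusted p = 0.00105 by edgeR). Targets were thus called in both directions. Among genes lowered by T3, 1 could be tested, Trh, at -0.11 (adjusted p = 0.597 by edgeR).

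Genes that bring T3 into cells or hold it there gave 2 rises and 2 falls among 6 tested. The share that rose was 33.3%, against 15.3% of all genes tested, of which 11.7% fell. Crym, a cytosolic T3-binding protein, increased from 3.22 ± 1.0 CPM to 6.95 ± 1.7 CPM (log2 fold change 1.08, adjusted p = 0.0103 by edgeR and 0.0849 by DESeq2). Slc7a5, an amino acid carrier that also moves thyroid hormone, fell by 0.62 on the log2 scale (adjusted p = 0.00258 by edgeR), and its heavy chain Slc3a2 by 0.27 (adjusted p = 0.00097 by edgeR).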

How the data were processed

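Thyroid RNA of 3 NP and 3 LP samples was sequenced from poly(A)+ libraries. For mapping to rn5 the authors used TopHat 1.4.0, then HTSeq-count on Ensembl release 81, and deposited raw read counts per gene, without normalization. Each gene carries a transcript identifier, whose choice is not given in the sources used here.

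The deposited counts were tested with edgeR 4.0.16 in R 4.3.3 (filterByExpr, TMM, glmQLFit, glmQLFTest; 11738 genes; standard error as the absolute log2 fold change over the square root of F). The alternatives were a replicate block, each sample left out, replicates 2 and 3 summed, no filter, other size factors, TMM without muscle markers, and DESeq2 1.42.0; the block with replicates 2 and 3 summed was added after the data were seen. Log2 CPM in correlations had a pseudocount of 0.5. No pairing of animals is stated, but deviations from group means correlated within each replicate number (0.50, 0.23 and 0.20), by the rule used here a sign of pairing, although replicates 2 and 3 also correlated across numbers (0.22 and 0.22).

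The members and lists were chosen with earlier results of these data known. Named genes are the 8 members, Nr1d1 and Nr1d2, the 3 called genes with the largest change per list, and the 3 most like Rxrg. Genes outside this rule are said to be so, overlap a member or are cell type markers. Acly, Acaca, Me1, Slc3a2, Trh, Kdm3b and Jmjd1c were named after their values were seen. Of other marker lists, 2 of 2 airway, 1 of 3 Schwann cell, 0 of 3 keratinocyte and 0 of 3 leukocyte genes tested were higher, with none lower, and 2 of 4 endothelial and 1 of 4 fibroblast genes were lower, with none higher. Some genes of the lists enter the counts but are not reported here by name. The tests were tried on simulated counts.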

Additional observations from a re-analysis of the deposited data

How the results depend on the processing

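The directions and calls of Thra, Thrb, Rxra, Rxrg and Thrsp held under all 13 alternatives, with log2 fold changes of 0.37 to 0.48, 0.72 to 0.87, 0.40 to 0.54, 3.97 to 4.86 and -0.40 to -0.29. With the replicate block, 5 of the 8 genes were higher and 1 lower as before, the coactivators called higher went from 4 to 5, and no count moved by more than 1.5 times. The block lowered the biological coefficient of variation from 0.0645 to 0.0131.

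Ncor1 had 0.21 with replicates 2 and 3 summed (adjusted p = 0.0984 by edgeR) and 0.19 to 0.30 with each sample left out. With samples left out, Rxrb ranged from -0.018 to 0.088 and Hr from -0.095 to 0.045, changing sign without passing the threshold. With the fold change also required to exceed 2, 1 of the 8 genes was higher and 0 lower, and 575 and 63 of all genes. DESeq2 called 703 genes lower in place of 1378, 2 coactivators higher and 0 lower, 0 other RXR-pairing receptors lower and 1 uptake gene higher; the count of receptors lower was also 0 with replicates 2 and 3 summed and 0 to 1 with samples left out. The cause was not tested. Rxrg had 1, 2 and 4 reads in the NP replicates, so depth limits its fold change.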
